A study of Mus musculus with 7 samples.

Results

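Adenylyl cyclases are the enzymes that make the intracellular messenger cyclic AMP (cAMP), and mice have 10 genes for them, Adcy1 to Adcy10. The genes were chosen by symbol as the complete family, and all 10 were found among the 23930 genes of the expression table. Transcripts were measured in bulk RNA of sorted Pax7-GFP cells, the label used for muscle satellite cells, with 3 libraries from normocapnia (NC1 to NC3) and 4 from hypercapnia (HC1 to HC4). All animals were inducible Pax7-GFP mice described as C57/B6 littermates, in which a Cre recombinase driven from the Pax7 locus turns on a green fluorescent protein after tamoxifen, so that a cell stays green once it has expressed Pax7. They received tamoxifen from 12 weeks of age, spent 4 weeks in room air (normocapnia) or in 10% CO2 (hypercapnia), and were collected at 16 weeks. The genotype labels run from C57BL/6 to C57BL/12, with a different number in each sample. Per the study's methods, tibialis anterior and gastrocnemius muscles of both groups had been injured with cardiotoxin 3 days before isolation, whereas the sample labels do not mention injury and a table title of the study gives 40 h. Both sexes were used and the labels give none. The labels do not say that each library came from a separate animal, so the p-values below measure the spread between these libraries.

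Adenylyl cyclases work downstream of G protein-coupled receptors: the stimulatory G protein Gs switches the membrane-bound enzymes on, the inhibitory Gi proteins restrain several of them, and the resulting cAMP acts through protein kinase A (PKA), the exchange factors called EPAC and the transcription factor CREB. The membrane-bound enzymes fall into classes by their other inputs. Adcy1, Adcy3 and Adcy8 are stimulated by calcium-bound calmodulin, Adcy2, Adcy4 and Adcy7 respond to G protein beta-gamma subunits, Adcy5 and Adcy6 are inhibited by calcium, and Adcy9 responds little to the plant compound forskolin, which activates the others. Adcy10 is the soluble enzyme. It ignores G proteins and is activated directly by bicarbonate, the ion that CO2 yields in water, so the family holds a candidate sensor of the exposure that was applied. In regenerating muscle, cAMP is known for promoting the growth and fusion of muscle precursors, and in macrophages for restraining inflammatory responses.

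The values are RPM (reads scaled to a common library total) from AmpliSeq libraries, which amplify a short stretch of each transcript, usually 1 amplicon a gene. Levels of different genes are therefore not compared here, and each gene is compared only between libraries. Library totals ran from 14527445 to 23388710 reads, so 1 read was worth 0.0428 to 0.0688 RPM and 3 reads, taken as the floor, 0.128 to 0.207 RPM. The libraries held more than satellite cells. Pax7 ran from 4.34 RPM in NC3 to 268 RPM in NC1, and the macrophage transcripts Lyz2 and Cd68 were at 8354 to 29108 and 729 to 2185 RPM. The mean log2(RPM + 1) of 12 macrophage markers was 8.31 ± 0.48 (SD, n = 3) in normocapnia and 8.72 ± 0.27 (SD, n = 4) in hypercapnia, a difference of 0.41 (exact permutation test, two-sided, p = 0.2). Differences in the scores of 10 marker lists, which cover satellite cells, myofibers, macrophages, neutrophils, lymphocytes, red blood cells, endothelium, pericytes and smooth muscle, fibro-adipogenic progenitors and Schwann cells, ran from -0.17 (myofibers) to 0.54 (endothelium), with exact permutation p from 0.2 to 0.943. In bulk RNA, fewer cells of a type and less RNA per cell cannot be told apart.

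Of the 10 cyclases, 8 had more than 3 reads in at least 1 library. Adcy7 was the one called higher in hypercapnia and no member was called lower, where calling a gene took a limma p below 0.05 before adjustment together with more than a 1.5-fold change, on log2(RPM + 1) and in a fit over all genes. By the same rule 2.57% of all genes were called, 1.43% higher and 1.14% lower. Of these 8 fold changes, 6 were positive, as were 10944 of all 17393 genes above 3 reads. After Benjamini-Hochberg adjustment limma called 0% of the genes (0 of 23930, with 1114 at an unadjusted p under 0.05), and edgeR called 0 and DESeq2 28 on the recovered reads, none of them a cyclase.

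**Figure D1:**
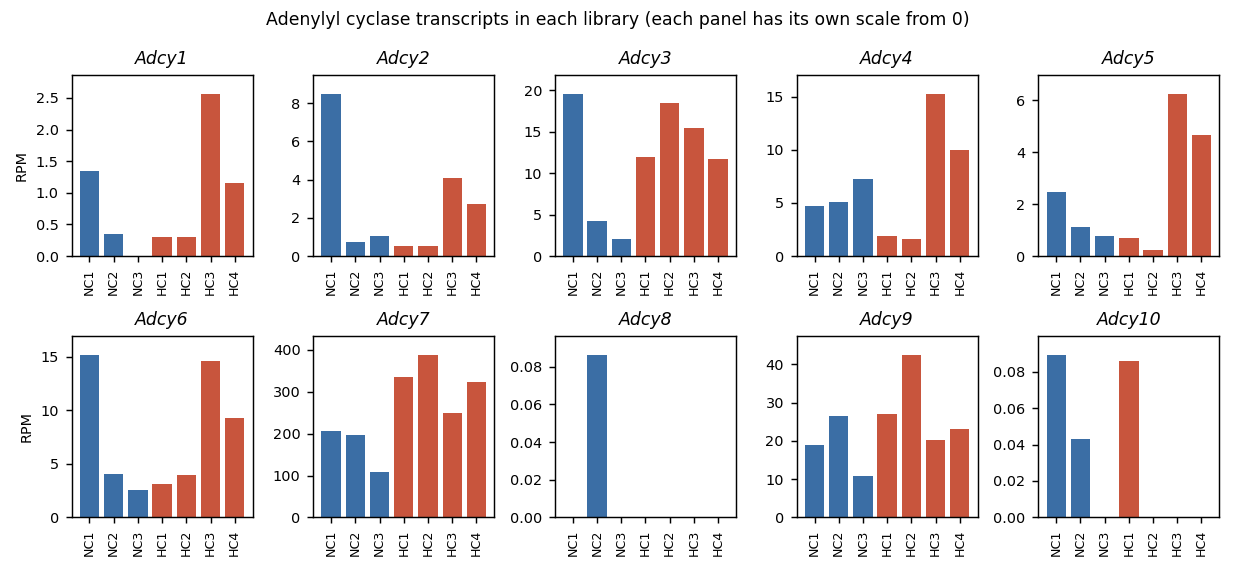
RPM of the 10 adenylyl cyclases (y axis, each panel on its own scale from 0) in 3 normocapnia (blue) and 4 hypercapnia (red) libraries, 1 bar a library. The 4 red bars of Adcy7 (249 to 387 RPM) all stand above its 3 blue bars (107 to 206 RPM), while the tallest bars of Adcy1, Adcy2, Adcy5 and Adcy6 are NC1, HC3 and HC4.

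Adcy7, the cyclase typical of blood cells and macrophages, was at 206, 196 and 107 RPM in NC1, NC2 and NC3. It was at 335, 387, 249 and 323 RPM in HC1, HC2, HC3 and HC4. Each hypercapnia library was above each normocapnia library, and NC3 was the lowest of all. The means were 169.8 ± 54.4 (SD, n = 3) and 323.4 ± 56.9 RPM (SD, n = 4). The log2 fold change was 0.97 (SE 0.28, 95% CI 0.26 to 1.67, limma p = 0.0160, adjusted p = 0.909), and the exact permutation test over the 35 ways to choose 3 of 7 libraries gave its smallest possible value, p = 0.0286. Among the 7 members with a mean of at least 1 RPM, Adcy7 alone had groups that did not overlap, against 7.72% of all such genes, 4.09% with hypercapnia higher. Genes at 1 RPM or more had a median log2 fold change of 0.16, and Adcy7 lay 0.80 above it. Its log2 fold change was 0.82 after scaling by median-of-ratios factors and 0.96 after quantile normalization, which move that median to 0.045 and -0.0064. Leaving out 1 library at a time kept the call in each of the 7 fits, with log2 fold changes from 0.67 (without NC3) to 1.13 (without NC1). Adjusted p-values over all alternatives ran from 0.230 to 0.961. The study also lists Adcy7 among its changed genes, from the same libraries, which adds no independent evidence.

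RefSeq gives Adcy7, the called member, 3 transcription starts on chromosome 8, and the 250 bases before the start farthest upstream are shown. The same window is shown for Adcy9, which followed the macrophage markers most closely, and for Adcy10, which was near 0 (build GRCm38.p6, gene strand, 5′ to 3′). Bases after the 3 Adcy7 starts were not found in annotated Adcy7 transcripts, whereas those of Adcy9 and Adcy10 were found in theirs. Which Adcy7 start these cells use was not tested. Capitals mark each CpG dinucleotide.

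Adcy7, chr8:88282742-88282991, plus strand: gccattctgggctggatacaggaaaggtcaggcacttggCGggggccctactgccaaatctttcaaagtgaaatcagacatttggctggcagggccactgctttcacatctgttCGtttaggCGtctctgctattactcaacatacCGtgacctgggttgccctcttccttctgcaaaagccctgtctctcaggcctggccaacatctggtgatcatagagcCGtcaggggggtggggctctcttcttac

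Adcy9, chr16:4420499-4420748, minus strand: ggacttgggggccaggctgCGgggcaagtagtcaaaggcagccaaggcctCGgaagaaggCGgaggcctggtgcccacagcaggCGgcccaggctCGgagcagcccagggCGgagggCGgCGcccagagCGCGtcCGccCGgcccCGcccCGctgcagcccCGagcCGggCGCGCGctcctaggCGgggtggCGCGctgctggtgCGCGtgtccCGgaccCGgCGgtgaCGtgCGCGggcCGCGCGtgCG

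Adcy10, chr1:165484933-165485182, plus strand: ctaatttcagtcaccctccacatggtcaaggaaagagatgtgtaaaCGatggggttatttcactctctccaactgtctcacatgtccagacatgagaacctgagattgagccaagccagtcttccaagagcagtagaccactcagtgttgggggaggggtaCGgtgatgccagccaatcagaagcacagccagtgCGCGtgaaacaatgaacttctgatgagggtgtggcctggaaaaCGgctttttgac

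The Adcy7 and Adcy10 windows hold 5 CpG each and are 54% and 50% G or C, near the medians of 6 and 52.4% over 32851 RefSeq windows of this length. The Adcy9 window holds 34 CpG at 78.8% G or C, more CpG than 96.5% of all windows. The other starts of Adcy7 have 3 CpG each. Windows were found for 8 of the 10 members, all but Adcy6 and Adcy8. The cAMP response element TGACGTCA, searched on both strands, is in none of the 11 member windows and in 1.55% of all windows. Its shorter form TGACG, which the palindrome contains, is in the windows of Adcy7 and Adcy9 shown above and in 17.8% of all windows, so these matches only describe the letters.

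Adcy7 was also set against the macrophage markers, because these were abundant and Adcy7 is known from such cells. The difference between log2(RPM + 1) of Adcy7 and the mean of the 12 markers was -0.51, -1.21 and -1.13 in NC1, NC2 and NC3 and -0.59, -0.31, -0.45 and -0.21 in HC1 to HC4. NC1 lay among the hypercapnia libraries and the other 2 normocapnia libraries below them. The group difference was 0.56 (exact permutation test, two-sided, p = 0.0571, where the smallest possible p is 0.0286). With the marker score as a covariate the Adcy7 log2 fold change was 0.65 (adjusted p = 0.893 by limma) and the call was lost. Set against single markers after values were seen, Adcy7 differed downward in hypercapnia from Adgre1 (-0.35) and Ccr2 (-0.15), which encode the F4/80 antigen and a receptor of monocytes. It differed upward from the others, where the groups overlapped for all but Csf1r and C1qa, the latter near 0 in each library. Of the 12 markers, 9 had a positive and 3 a negative fold change. Adgre1 alone was called, higher in hypercapnia, where 1.43% of all genes were called higher. Adgre1 was at 70.5 to 149 RPM in normocapnia and 151 to 429 RPM in hypercapnia (log2 fold change 1.31, limma adjusted p = 0.915). Over the 7 libraries Adcy7 had Pearson's r = 0.80 and Spearman's rho = 0.75 with the marker score. Without NC3 and HC1, the 2 libraries with scores farthest from the median, r was 0.44, over a narrower range of scores.

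Adcy9 was at 18.8, 26.4 and 10.9 RPM in NC1 to NC3 and at 27.1, 42.4, 20.2 and 23.02 RPM in HC1 to HC4. The groups overlapped, with NC2 above HC3 and HC4. The log2 fold change of 0.59 (SE 0.38, 95% CI -0.35 to 1.53, adjusted p = 0.915 by limma, exact permutation p = 0.2) did not pass the test, and was called with Xist as a covariate (0.74) and with the replicate block (0.66). Adcy9 followed the macrophage score with r = 0.91 and rho = 0.96 over 7 libraries that share both measures, and r = 0.88 without NC3 and HC1. With that score as a covariate its log2 fold change was 0.094. The share of macrophage RNA in the Adcy7 and Adcy9 differences was not tested beyond these values.

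**Figure D2:**
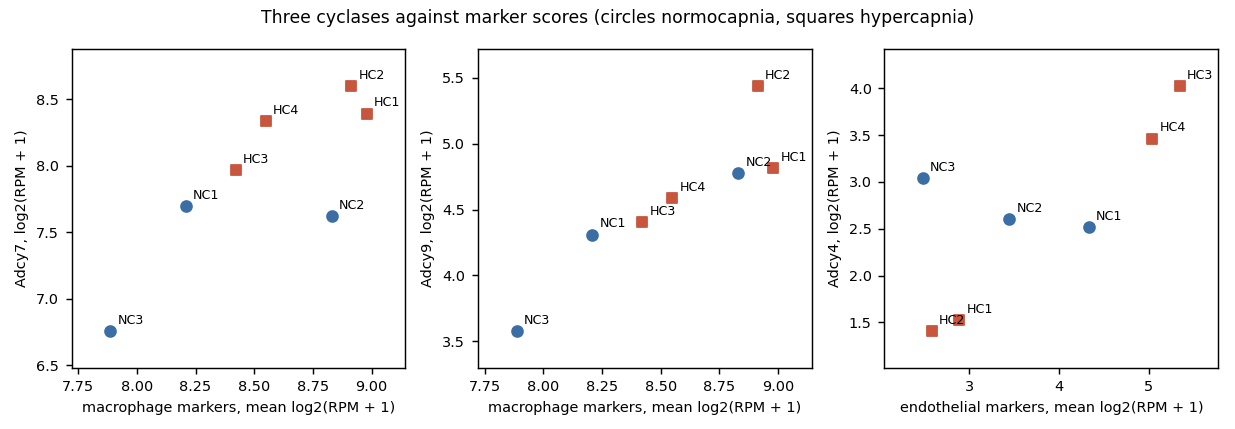
Each point is 1 of 7 libraries: log2(RPM + 1) of Adcy7, Adcy9 and Adcy4 (y axes) against the mean log2(RPM + 1) of macrophage or endothelial markers (x axes), with normocapnia as circles and hypercapnia as squares. Adcy9 climbs with the macrophage score (r = 0.91), whereas NC2 has a high macrophage score (8.83) without a high Adcy7 value.

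Adcy3, a calmodulin-stimulated cyclase best known from olfactory neurons and primary cilia, had a positive fold change that did not pass the test. It was at 19.5, 4.28 and 2.07 RPM in NC1 to NC3 and at 11.9, 18.4, 15.4 and 11.6 RPM in HC1 to HC4. The hypercapnia libraries lay close together, and NC1 alone overlapped them, from above. The log2 fold change was 1.13 (SE 0.67, 95% CI -0.55 to 2.80, limma adjusted p = 0.915, exact permutation p = 0.229). Without NC1 it was 1.91 and the gene was called, and without NC3 it was 0.54 and the gene was not. NC1 is the library with the highest Pax7 and the highest satellite score (6.71, against 3.34 to 5.75 in the others).

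**Figure D3:**
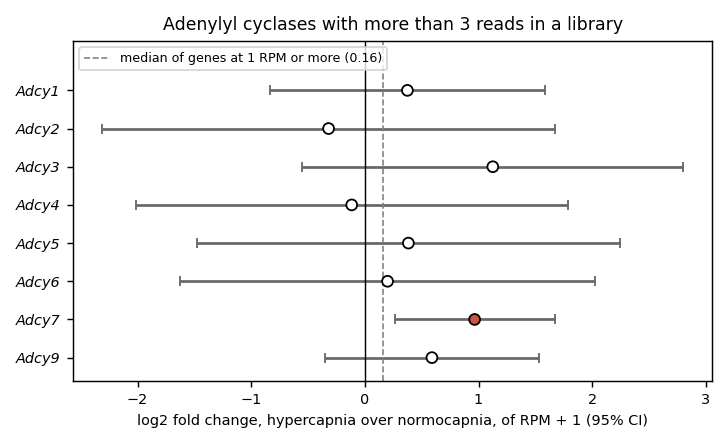
Log2 fold change of RPM + 1, hypercapnia over normocapnia (x axis), with its 95% CI for the 8 cyclases over 3 reads in a library; red marks the called gene and the dashed line the median of genes at 1 RPM or more (0.16). The interval of Adcy7 (0.26 to 1.67) lies above 0 and the other 7 include it.

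Adcy1, Adcy2, Adcy5 and Adcy6 shared a pattern that did not follow the groups. In each of them NC1, HC3 and HC4 were the 3 highest libraries. Adcy6, a calcium-inhibited cyclase found in many tissues, was at 15.1 RPM in NC1, 14.6 in HC3 and 9.28 in HC4, against 4.02 and 2.55 in NC2 and NC3 and 3.13 and 3.97 in HC1 and HC2. Its calcium-inhibited relative Adcy5, prominent in heart and striatum, was at 2.45, 6.25 and 4.67 RPM in the same 3 libraries and at 0.251 to 1.11 RPM in the other 4. Adcy2, studied mostly in brain, was at 8.48, 4.06 and 2.71 RPM in NC1, HC3 and HC4 and at 0.514 to 1.03 RPM elsewhere. The neuronal Adcy1 was at 1.34, 2.56 and 1.15 RPM there and at 0 to 0.342 RPM elsewhere, where its values rest on few reads. The spread within each group thus exceeded the difference between groups: the log2 fold changes were 0.37 (Adcy1), -0.32 (Adcy2), 0.38 (Adcy5) and 0.20 (Adcy6), with SE from 0.49 to 0.80 and exact permutation p from 0.543 to 0.829. On recovered reads the log2 fold changes of Adcy1 and Adcy5 were larger and not called (1.003 and 0.998 for Adcy1, and 0.96 and 0.92 for Adcy5, with edgeR and DESeq2). That of Adcy2 was more negative and not called, at -0.72 with edgeR, -0.77 with DESeq2 and -0.66 after quantile normalization. In the main fit the 95% CIs of these 4 genes all include 0 and the 0.97 of Adcy7, so a difference of that size was not detectable in them. The sign of Adcy6 turned negative with quantile normalization (-0.078).

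The same 3 libraries were the highest for several marker lists. The endothelial score was 4.34 in NC1, 5.35 in HC3 and 5.04 in HC4, against 2.48 to 3.44 in the other 4, and the score of pericyte and smooth muscle markers was 5.08, 5.50 and 4.63 against 3.17 to 3.59. The satellite score was 6.71, 5.75 and 5.34 there, against 3.34 to 4.30, and the neutrophil score 2.73, 2.92 and 2.61 against 1.43 to 2.04. Since the libraries fall into 2 sets for these measures, no correlation over all 7 is given, and the part of other cells in these 4 cyclases was not tested.

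Adcy4, which belongs to the same class as Adcy7 and is prominent in endothelial cells, did not share the pattern of Adcy7. It was at 4.73, 5.09 and 7.23 RPM in NC1 to NC3 and at 1.88, 1.66, 15.2 and 10.0 RPM in HC1 to HC4. The normocapnia libraries were close together, and hypercapnia held both the 2 lowest and the 2 highest values. The log2 fold change of -0.12 (SE 0.76, 95% CI -2.02 to 1.79, exact permutation p = 0.829) had no stable sign. The 3 genes most like it among 8229 at 10 RPM or more were Emcn (r = 0.97), which encodes endomucin of venous and capillary endothelium, Slc9a3r2 (0.96) and the prostaglandin transporter gene Slco2a1 (0.96). Emcn was at 12.5, 7.23 and 12.6 RPM in normocapnia and at 3.38, 1.96, 42.2 and 35.6 RPM in hypercapnia, the same order of low and high hypercapnia libraries. Of the 8 endothelial markers, which include Emcn, all were highest in HC3, but 4 (Kdr, Tie1, Cldn5 and Vwf) were lowest in NC3, where Adcy4 had its highest normocapnia value. Against the endothelial score Adcy4 had r = 0.75 and rho = 0.61 over the 7 libraries. Without HC3 and HC4, the 2 libraries with scores farthest from the median, r was 0.26, over a narrower range of scores.

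For the other members at 5 RPM or more, the most similar genes by Pearson's r over the 7 libraries were Angel2 (0.99), Aldh2 (0.99) and Galm (0.99) for Adcy7, Atf6 (0.99), Cd300lb (0.98) and Lrpap1 (0.98) for Adcy9, Anxa6, Arhgap22 and Lig1 (each 0.99) for Adcy3, and Nup133, Cs and Pcgf2 for Adcy6, which were likewise highest in NC1, HC3 and HC4, so that no r is given for them. Each is among the best 3 of 8228 or 8229 genes searched, in 7 libraries that both genes share, so high values are easy to reach. Aldh2, the mitochondrial aldehyde dehydrogenase gene, was at 122 to 281 RPM in normocapnia and 446 to 680 RPM in hypercapnia, a separation that its choice by likeness to Adcy7 brings with it.

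The bicarbonate-activated Adcy10 gave 2, 1 and 0 reads in NC1, NC2 and NC3 and 2, 0, 0 and 0 reads in HC1 to HC4. No library reached the floor of 3 reads. Over the pooled reads this is 0.0497 RPM in normocapnia (95% exact Poisson interval 0.0103 to 0.145) and 0.0270 RPM in hypercapnia (0.00327 to 0.0976), intervals that overlap and cover counting error only. Adcy8, the other member at the floor and a calmodulin-stimulated cyclase of brain, gave 2 reads in NC2 and 0 in the other 6 libraries, and 0 reads over the 4 hypercapnia libraries allow up to 0.0498 RPM by the same interval (3 reads there would be 0.0405 RPM). No fold change is given for either gene. A value near 0 in this table does not show that a transcript is absent: C1qa, which macrophages express together with C1qb, was at 0 to 0.452 RPM in libraries with 158 to 1061 RPM of C1qb. A difference of Adcy10 between normocapnia and hypercapnia was not detectable at this depth with this panel.

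The genes around the cyclases were described by role, from lists of cAMP signaling genes. Of 125 such genes in the table, 119 had more than 3 reads in a library, 2 were called higher (Cap1 and P2ry13) and 5 lower (Pde3b, Akap8, Crtc2, Sik2 and Areg), with none passing the Benjamini-Hochberg adjustment, where 1.43% of all genes were called higher and 1.14% lower. Median-of-ratios scaling and quantile normalization each gave 3 higher and 3 lower. Of 96 with a mean of at least 1 RPM, 5 had groups apart with hypercapnia higher and 10 with hypercapnia lower, and over all genes these shares were 4.09% and 3.63%. Over all 17393 genes above 3 reads, 10944 fold changes were positive and 6449 negative, with a median of 0.13.

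At the receptors, none of 28 Gs-coupled receptor genes was called (11 positive and 12 negative of 23 over 3 reads by limma in the main fit). The signs depended on single libraries, with 18 and 5 without NC1 and 7 and 16 without NC3, and 1 gene was called higher without NC1 or without NC2. Of 15 Gi-coupled receptor genes, P2ry13, an ADP receptor gene of myeloid cells, was called higher. It was at 12.5, 7.95 and 10.9 RPM in NC1 to NC3 and at 13.5, 19.9, 22.9 and 19.7 RPM in HC1 to HC4, with no overlap (log2 fold change 0.81, SE 0.22, limma adjusted p = 0.877, exact permutation p = 0.0571), a call lost in 4 of 18 alternatives (quantile normalization, edgeR, DESeq2 and the replicate block). Its neighbour in sequence and function, P2ry12, and the sphingosine-1-phosphate receptor gene S1pr1 also had groups apart, and were named after their values were seen. P2ry12 was at 15.6 to 21.3 against 22.2 to 78.5 RPM (exact permutation p = 0.0571) and S1pr1 at 15.9 to 83.4 against 94.0 to 172 RPM (exact p = 0.0286), and neither was called by limma in the main fit. Of this list, 3 genes were called higher over genes at 1 RPM or more, and 2 with median-of-ratios scaling. With edgeR and with DESeq2, 2 were called higher and 1 lower. The complement receptor gene C5ar1 was at 43.2 to 198 and 108 to 158 RPM.

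At the G proteins and direct regulators, none of 6 G protein alpha genes was called by limma in the main fit, and the Gs alpha gene Gnas was not analysed here. Gnai2, the main Gi alpha gene of leukocytes, was at 1843, 3276 and 707 RPM in normocapnia and 3145, 4077, 2180 and 2626 RPM in hypercapnia (log2 fold change 0.85, SE 0.56). Gnai3, named after its values were seen, had groups apart with hypercapnia lower, at 139.9 to 209 against 119 to 138 RPM (log2 fold change -0.39, SE 0.15, exact permutation p = 0.0286), under the 1.5-fold threshold. Among 6 other regulators, Cap1, which encodes a cyclase-associated protein that also turns over actin, was called higher. It was at 120, 208 and 91.8 RPM in NC1 to NC3 and at 329, 309, 198 and 215 RPM in HC1 to HC4, so that NC2 overlapped HC3 (log2 fold change 0.95, SE 0.34, adjusted p = 0.915 by limma, exact permutation p = 0.0571). The Cap1 call was lost in 8 of 18 alternatives, namely median-of-ratios scaling (0.81), edgeR, DESeq2, the macrophage covariate and the fits without NC1, NC3, HC1 or HC2. With edgeR and with DESeq2 another gene of this list was called lower and the median of the list was -0.43 and -0.46, against 0.19 in the main fit. Calmodulin gene Calm2 was at 1185 to 1619 and 1167 to 1802 RPM.

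Among 16 cAMP phosphodiesterase genes, which remove the messenger, Pde3b was called lower, at 50.4, 67.6 and 112.9 RPM in NC1 to NC3 and at 40.1, 43.2, 42.9 and 44.9 RPM in HC1 to HC4. The groups did not overlap, and NC3 stood out (log2 fold change -0.75, SE 0.27, limma adjusted p = 0.915, exact permutation p = 0.0286). This call was lost in 10 of 18 alternatives, both scalings and each fit without 1 library other than NC1 among them, while the log2 fold change was -0.90 and -0.76 under the scalings. Signs in this list followed the scaling, with 10 positive and 6 negative in the main fit and 4 and 12 after quantile normalization. Pde4b was at 38.9 to 384 and 130 to 181 RPM, with the normocapnia libraries at both ends.

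Of 9 genes for PKA subunits and inhibitors, none was called by limma in the main fit, and 1 was called higher with DESeq2, under both other scalings and over genes at 1 RPM or more. Prkar1b and Pkib had groups apart with hypercapnia higher (0.826 to 4.73 against 4.79 to 7.58 RPM, and 30.9 to 33.1 against 38.7 to 79.6 RPM) and Prkar2a with hypercapnia lower (63.1 to 87.6 against 53.0 to 60.1 RPM), and these were named after their values were seen. Prkar1a was at 291 to 1127 and 605 to 922 RPM. Of 14 genes for A-kinase anchoring proteins, which tether PKA, Akap8 was called lower. It was at 20.9, 27.5 and 25.7 RPM in normocapnia and at 15.1, 14.5, 17.5 and 14.3 RPM in hypercapnia, without overlap (log2 fold change -0.65, SE 0.12, limma adjusted p = 0.650, exact permutation p = 0.0286). The Akap8 call was kept in 16 of 18 alternatives, and lost with a 5 RPM pseudocount and without NC2. Akap13 spread from 17.5 to 147 RPM in normocapnia and from 43.4 to 90.9 RPM in hypercapnia. None of 9 genes for EPAC, Popeye and HCN cAMP-binding proteins was called, and Bves was at 2.48 to 33.9 and 5.23 to 18.2 RPM.

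Of the pathway lists, the most uniform sign was that of CREB, its coactivators and the salt-inducible kinases that restrain these coactivators. Of its 11 genes, 10 had a negative fold change, with a median of -0.43, and the same 10 to 1 split was found under both other scalings and with the macrophage covariate. In 5 of the 11 the groups were apart with hypercapnia lower, against 3.63% of all genes at 1 RPM or more. Crtc2, a CREB coactivator gene, was called lower, at 102, 102 and 142 RPM in NC1 to NC3 and at 54.3, 58.2, 78.0 and 70.1 RPM in HC1 to HC4. Its groups did not overlap (log2 fold change -0.81, SE 0.18, limma adjusted p = 0.752, exact permutation p = 0.0286), and the call was kept in 17 of 18 alternatives, all but the macrophage covariate. Sik2, a kinase gene of the opposing arm, was called lower as well, at 21.7, 39.1 and 41.1 RPM in normocapnia and at 17.4, 19.5, 19.4 and 16.7 RPM in hypercapnia (log2 fold change -0.81, SE 0.24, adjusted p = 0.909 by limma, exact permutation p = 0.0286), but in neither of the other scalings (log2 fold changes -0.95 and -0.89), nor without NC2 or NC3. Creb1, Crtc1 and Crebbp also had groups apart with hypercapnia lower, and were named after their values were seen. Creb1 was at 35.5 to 44.4 against 27.2 to 32.3 RPM, a log2 fold change of -0.42 (exact permutation p = 0.0286) under the 1.5-fold threshold. The one gene with a positive sign, Atf1, was at 56.0 RPM in NC3 and 167 to 227 RPM in the other 6 libraries, and without NC3 all 11 signs were negative. Sik1 was at 269 to 555 and 237 to 341 RPM. The number of genes of this list called lower was 2 in the main fit, 4 with edgeR, 5 with DESeq2 and 1 under each of the other scalings.

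**Figure D4:**
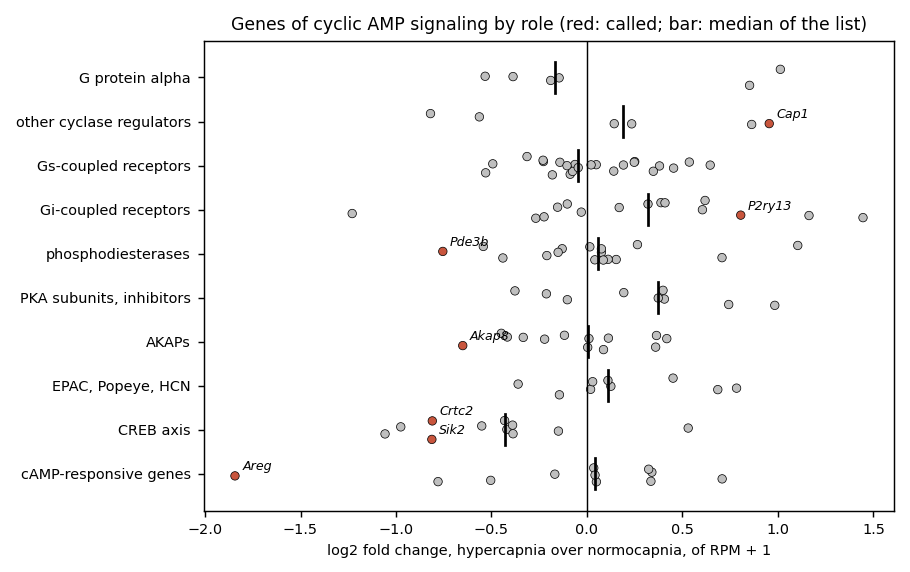
Log2 fold change of RPM + 1 (x axis) of 119 genes of cAMP signaling, grouped by role (y axis, scattered within a row for visibility); red points are the 7 called genes and the black bar is the median of each list. Of the CREB axis, 10 of 11 points lie left of 0, with a median of -0.43.

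Among 11 genes that cAMP is known to induce, Areg, which encodes the growth factor amphiregulin, was called lower, at 12.7, 52.0 and 34.2 RPM in NC1 to NC3 and at 9.76, 8.84, 7.94 and 3.79 RPM in HC1 to HC4. The groups did not overlap, with NC1 nearest to hypercapnia (log2 fold change -1.84, SE 0.55, limma adjusted p = 0.909, exact permutation p = 0.0286), and the call was lost in 3 of 18 alternatives (without NC2, without NC3 and with the replicate block). The other 10 were not called by limma in the main fit, and 1 of them was called lower with DESeq2 and with the macrophage covariate. Fos was at 1784 to 4114 and 2498 to 2890 RPM (log2 fold change 0.049). Signs in this list were 7 positive and 4 negative in the main fit, 6 and 5 after quantile normalization, and 4 and 7 with median-of-ratios scaling. They were 2 and 9 with edgeR, with DESeq2, with the macrophage covariate and without NC3. For comparison with the sister family, none of 11 guanylyl cyclase genes, which make cyclic GMP, was called, and Npr2 was at 8.38 to 64.4 and 5.48 to 31.1 RPM, highest in NC1, HC3 and HC4 like Adcy6.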

How the data were processed

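Bulk RNA of sorted Pax7-GFP cells was measured with AmpliSeq libraries. The authors deposited 1 table of RPM, reads scaled to the total assigned to the panel. No aligner or build is given in the sources used here, and the Transcriptome Analysis Console is the tool that the submitters' processing notes name. Groups were taken from the sample labels. Whole reads were recovered from the RPM steps (100% of values within 0.05 reads; tested on simulated data, 3 of 3 libraries were right).

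All 23930 genes entered a two-sided limma fit (version 3.58.1, R 4.3.3) of log2(RPM + 1) without covariates. A gene was called at an unadjusted p under 0.05 and a fold above 1.5, with Benjamini-Hochberg adjustment beside it; fold changes on this scale understate those of low genes. Marker scores were compared by exact permutation over 35 choices. edgeR 4.0.16 and DESeq2 1.42.0 were run on recovered reads as alternatives. No fold is given for genes at or under 3 reads in each library. Promoter windows came from RefSeq.

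Named are all 10 members; per list, up to 4 called genes by smallest p and the gene with the highest mean RPM (a rule for naming, not a ranking of transcripts); per member at 5 RPM or more, the 3 most similar genes at 10 RPM or more; and the first 2 genes of a marker list that a result touches. Values of a gene under this rule are left out. The members and lists were chosen with earlier results of these data known. The fits were tested on simulated counts without differences in cell composition, with larger changes than those of the cyclase and pathway genes called here. This does not measure their accuracy on these libraries. The replicate numbers were not treated as pairs. Among same-numbered libraries, only NC2 and HC2 deviated alike from their group means, which cannot show whether the libraries were paired.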

Additional observations from a re-analysis of the deposited data

How the results depend on the processing

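Adcy7 stayed called and positive in 17 of 18 alternatives, and was lost with the macrophage score as a covariate (0.65); without 1 library its fold change was 0.67 to 1.13. With 1 library left out, the log2 fold changes ran from 0.071 to 0.71 for Adcy1, 0.27 to 0.87 for Adcy9, -0.77 to 0.46 for Adcy2, 0.54 to 1.91 for Adcy3, -0.59 to 0.28 for Adcy4, -0.033 to 0.81 for Adcy5 and -0.25 to 0.84 for Adcy6. Signs also turned with the macrophage covariate for Adcy2 (0.32) and Adcy4 (0.63), with a 5 RPM pseudocount (0.032), edgeR (0.069) and DESeq2 (0.014) for Adcy4, and with quantile normalization for Adcy6 (-0.078); none of the values that turned sign passed the test. Adcy1 was at 1.10 with a 0.1 RPM pseudocount. The number of cyclases called was 0 with the macrophage covariate, 2 with Xist as a covariate (Adcy9 at 0.74) and 2 with the replicate block (Adcy9 at 0.66), and 1 to 2 without 1 library (Adcy3 without NC1). Pathway genes called were 7, but 11 over genes at 1 RPM or more, 11 with edgeR (2 higher and 9 lower), 14 with DESeq2 (3 and 11), 15 with the Xist covariate and 5 to 19 without 1 library (19 without NC1). All genes called were 615 (343 higher and 272 lower), 802 with edgeR (294 and 508), but 1304 with DESeq2 (519 and 785), 1316 with the Xist covariate and 376 to 1990 without 1 library (376 without HC2, 385 without HC1, 1205 without NC2, 1990 without NC1). The cause of these shifts was not tested. Same-numbered libraries correlated at -0.35, 0.50 and -0.044, and NC1 and NC3 correlated best with HC3 and HC4, so the numbers were not treated as pairs and the replicate block is a check only; with it Adcy7 was at 0.96 and 598 genes in all and 7 pathway genes were called. Relative to the macrophage markers, Adcy7 differed by 0.49 to 0.58 with other pseudocounts, by 0.52 without Lyz2 and by 0.43 to 0.78 without 1 library, where the smallest possible p is 0.0667 or 0.1. Adcy8 and Adcy10 rest on 2 and 5 reads, and whether depth or the panel limits them was not tested.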
